A study of Mus musculus with 12 samples.

Results

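The MHC class I genes H2-K1, H2-D1, H2-Q4, H2-Q6, H2-Q7, H2-T22, H2-T23, H2-T24 and H2-M3, together with B2m, were followed in cultured mouse oligodendrocyte precursor cells (OPCs). These 10 genes were taken by name from the 55536 genes of the deposited transcript tables, and all 10 passed the filter on low counts, H2-Q6 through the interferon-treated libraries alone. The OPCs came from pooled brains of pups at postnatal days 4 to 6, and were selected either by sorting for Sox10-GFP or with CD140a beads. Which preparation used which method is not given in the sources used here. Per the study's methods the mice carried Sox10:Cre-RCE:LoxP (EGFP), in which Cre under Sox10 switches on EGFP across the oligodendrocyte lineage, on a mixed background of C57BL/6 and CD1. Per the labels all cultures grew with PDGFaa at 10 ng/ml and bFGF at 20 ng/ml, whereas the study's methods give higher concentrations of both. The 3 groups were untreated cultures (Ctr), cultures given dexamethasone, a synthetic glucocorticoid, at 1 µM for 48 h (Dexa), and cultures given interferon gamma (IFN-γ) at 100 ng/ml for 48 h (IFNg). No vehicle is named for the Ctr group. Replicate numbers 1 to 4 stood for different litters, and each number was present in all 3 groups. All libraries also carry the tag EAE, an autoimmune mouse model of multiple sclerosis, although the growth protocol describes pups without it. The transcript table of Dexa replicate 3 is incomplete, listed 33.7% of the transcripts and held no class I gene, so 4 Ctr, 3 Dexa and 4 IFNg libraries were compared.

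MHC class I molecules are built from a heavy chain, encoded in mice by the H2 genes of chromosome 17, and a light chain, beta-2-microglobulin, encoded by B2m on chromosome 2. Classical heavy chains carry peptides from inside the cell to the surface, where CD8 T cells inspect them. Nonclassical heavy chains show more restricted cargo or none and are read by natural killer cells and by less common T cell types. Cells of the healthy brain hold little class I protein, and interferons are well known inducers of it.

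All 10 genes lie at known positions of GRCm38. B2m spans chr2:122147686-122153083 on the plus strand. On chromosome 17, H2-K1 (chr17:33996017-34000347, minus strand) lies apart from H2-D1 (chr17:35262730-35267499), H2-Q4 (chr17:35379617-35385290), H2-Q6 (chr17:35424850-35430055) and H2-Q7 (chr17:35439155-35443773), which are on the plus strand. H2-T24 (chr17:36005695-36020560), H2-T23 (chr17:36029773-36032855) and H2-T22 (chr17:36037128-36042747) follow on the minus strand and H2-M3 (chr17:37270220-37274484) on the plus strand.

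The upstream sequences of 5 of the genes are shown because class I promoters are known for a compact upstream region that holds an interferon response element and, closer to the start, an SXY module. They were read from the RefSeq promoter table of GRCm38.p6, which matched 9 of the 10 genes, all but H2-T24. H2-K1 had 2 starts there, of which the first was used. The stretches lie at chr17:34000351-34000459 (minus strand), chr17:35424676-35424807 and chr17:35439020-35439151 (plus strand), chr17:36042793-36042955 (minus strand) and chr2:122147526-122147646 (plus strand), upstream of the RefSeq start and outside annotated exons. Capitals mark matches, on either strand, to GAANNGAAA or its longer form with 1 more A before the open bases (types of interferon stimulated response element, ISRE), to GGGNNTTCC (kappaB type), to TGACG (CRE type) and to ATTGG, which is known as the CCAAT type.
H2-K1: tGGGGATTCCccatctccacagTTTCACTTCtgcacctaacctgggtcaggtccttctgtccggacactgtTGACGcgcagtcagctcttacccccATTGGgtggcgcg
H2-Q6: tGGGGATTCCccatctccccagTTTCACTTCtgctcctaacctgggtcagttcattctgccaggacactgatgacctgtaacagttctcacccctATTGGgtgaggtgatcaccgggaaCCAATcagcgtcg
H2-Q7: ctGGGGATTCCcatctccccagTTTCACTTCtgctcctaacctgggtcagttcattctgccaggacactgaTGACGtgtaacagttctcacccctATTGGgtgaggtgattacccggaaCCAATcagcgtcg
H2-T22: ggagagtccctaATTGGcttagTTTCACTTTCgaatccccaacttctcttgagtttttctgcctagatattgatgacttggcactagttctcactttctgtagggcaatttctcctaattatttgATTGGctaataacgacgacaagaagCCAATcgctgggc
B2m: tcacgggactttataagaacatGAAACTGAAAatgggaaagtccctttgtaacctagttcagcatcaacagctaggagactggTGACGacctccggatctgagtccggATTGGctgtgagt

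Of the 9 promoters, 6 held the ISRE type GAANNGAAA (H2-K1, H2-D1, H2-Q4, H2-Q6, H2-Q7 and H2-M3), in each as TTTCACTTC, against 7.56% of 27025 promoters of the same length. H2-T22, H2-T23 and B2m held the longer form, which was present in 3.49% of all promoters and was added after the sequences had been seen. The kappaB type was found in H2-K1, H2-D1, H2-Q4, H2-Q6 and H2-Q7, and in 5.72% of all promoters. A CCAAT type match stood in all 9 promoters, against 37.9% of the whole table, and a CRE type match in 7, against 21.0%. Matches were counted over the whole promoter and in any order. The CRE type match of H2-T22 stood at -22, closer to the start than its CCAAT type matches and outside the stretch shown. In H2-Q4 the one upstream of the start stood at -73, after a CCAAT type match at -79. The GAS type TTCNNNGAA was found in H2-M3 alone and in 8.47% of all promoters. Matches of this kind describe letters and show no binding. The H2 genes resemble each other, so their promoters are not independent draws to set against these shares. The pattern GAANNGAAA was also written with the spacing of the classical class I genes. H2-Q6 and H2-Q7 differed at 3 of the 110 bases from the first base of TTTCACTTC to the end of the stretch, and 1 of these substitutions, G54C counted from that base and read from H2-Q7 to H2-Q6, fell in the TGACG of H2-Q7.

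The H2 genes resemble each other, so reads can be shared between them. Of the 31-base stretches in a gene's annotated transcripts, the share found in no other gene ran from 49.0% for H2-T22 and 49.7% for H2-Q6 to 95.4% for H2-M3, and was 100.0% for B2m. H2-T22 shared 47.2% of its 31-base stretches with H2-T10, and H2-Q7 shared 22.4% with H2-Q10. Over stretches of 150 bases, the length of 1 read, at least 94.0% were found in a single gene for each of the 10. The summed count of the 9 H2 genes (H2 sum), which does not depend on how reads were split among them, is therefore given beside the single genes.

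The 11 complete libraries held 19209063 to 52074652 estimated reads. All 6 OPC markers (Pdgfra, Cspg4, Sox10, Olig1, Olig2 and Ptprz1) passed the count filter, with a summed level of 4908 to 8649 CPM (counts scaled to a common library total) in Ctr, 5778 to 8796 in Dexa and 3580.0 to 7342 in IFNg. None of the 6 was called in IFNg against Ctr. With the replicate number as a block in the fit, DESeq2 called 3 lower, where 14.1% of all tested genes were called lower. Microglia and macrophage markers summed to 0.513 to 1.42 CPM in Ctr, 0.754 to 1.32 in Dexa and 1.02 to 1.62 in IFNg. Of the 10, 2 passed the filter and 3 had no more than 3 reads in every library. None of 5 T cell and NK cell markers passed, and Ncr1 was at 0 in every library. Neuron markers summed to 41.7 to 47.2 CPM in Ctr, 51.8 to 56.5 in Dexa and 78.7 to 149 in IFNg. In IFNg, Tubb3 and Syt1 were called higher than in Ctr by DESeq2 and edgeR, where 8.02% and 6.06% of all tested genes were. Rbfox3 and Snap25 were not called. With the block Snap25 was called lower by DESeq2 (log2 fold change -0.46 ± 0.13 SE), where 14.1% of all tested genes were. Its edgeR adjusted p with the block was 0.00650. The 5 astrocyte markers summed to 298 to 959 CPM in Ctr, 550.1 to 1098 in Dexa and 494 to 915 in IFNg. In IFNg, Gfap alone was called higher than in Ctr by DESeq2 and edgeR, where 8.02% and 6.06% of all tested genes were. With the block DESeq2 called 3 higher and 2 lower, where 15.2% and 14.1% of all tested genes were. edgeR with the block called 2 higher, where 16.0% of all tested genes were called higher. In that fit Aqp4 and Gja1 were lower (edgeR adjusted p = 0.00600 and 0.00301). The share of all genes called lower in it is not given here, so this is not set against a background. Myelinating oligodendrocyte markers summed to 29.5 to 168 CPM in Ctr, 40.5 to 252 in Dexa and 20.4 to 117 in IFNg. Endothelial cell markers summed to 2.61 to 3.43, 3.97 to 6.72 and 2.07 to 2.93 CPM in the same order. Among them, Flt1 was called higher in Dexa than in Ctr by DESeq2 (1.11 ± 0.30 SE), where 0.547% of all tested genes were called, and by edgeR with the block alone. The part of these other cell types in the class I values was not tested. In such bulk cultures, more RNA per cell and more cells with the RNA cannot be told apart.

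IFN-γ raised all 10 class I genes. The comparison with Ctr asked how far each heavy chain gene and the light chain gene responded in OPCs. All 10 were called higher by DESeq2 at an adjusted p under 0.05 and all 10 by edgeR, where 8.02% and 6.06% of the 17919 tested genes were called higher and 4.83% and 2.38% lower. Their normalized counts (estimated reads divided by the library's size factor) did not overlap between the groups, which held in the same direction for 8.66% of all tested genes. The median log2 fold change was 6.0 over the 10 genes and -0.02 over all genes tested. H2-Q6 entered these counts and the median through its reads in the IFNg libraries alone, so it adds no support to them.

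B2m, the light chain gene, had 22.5, 22.9, 22 and 19.4 TPM (the unit of expression scaled for transcript length and library total) in Ctr replicates 1 to 4 and 979, 1307, 1199 and 1402 TPM in the IFNg replicates. Every IFNg library stood far above every Ctr library. Its log2 fold change was 5.64 ± 0.14 (SE), a 50.0-fold rise (edgeR adjusted p = 1.43e-09). Ranked by mean TPM over all genes, B2m moved from place 2784 in Ctr to place 26 in IFNg.

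H2-K1 and H2-D1 encode the 2 classical heavy chains listed here. H2-K1 had 24.1, 17.0, 8.84 and 12.3 TPM in the 4 Ctr libraries and 960.1, 993, 971 and 1165 TPM in IFNg. Its log2 fold change was 5.67 ± 0.38 (SE), or 51.1-fold (edgeR adjusted p = 9.78e-06). H2-D1 had 6.92, 9.0, 8.78 and 7.83 TPM in Ctr and 436, 475, 382 and 469 TPM in IFNg. The H2-D1 change of 5.63 ± 0.07 (SE), or 49.4-fold (edgeR adjusted p = 1.3e-10), was as large as that of H2-K1 and carried the smallest error of the 10. By mean TPM, H2-K1 went from place 3915 to place 39 of all genes and H2-D1 from 6494 to 143.

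H2-Q4, H2-Q6 and H2-Q7 belong to the Q region, whose products include Qa-2, a nonclassical molecule that can be anchored by a lipid tail. H2-Q4 had 0.973, 0.999, 0.682 and 0.699 TPM in Ctr and 90.5, 106, 92.4 and 113 TPM in IFNg, a log2 fold change of 6.74 ± 0.20 (SE, edgeR adjusted p = 9.53e-09). H2-Q7 had 1.18, 0.761, 0.624 and 0.576 TPM in Ctr and 141, 103, 105 and 116 TPM in IFNg, a change of 7.16 ± 0.24 (SE, edgeR adjusted p = 2.23e-08). These 2 genes were thus at similar levels in both groups. H2-Q6 was close to absent in Ctr, with 6, 7, 5 and 4 estimated reads, and had 1900, 1499, 1750 and 2062 reads in IFNg. The H2-Q6 log2 fold change of 8.84 ± 0.39 (SE), or 459-fold (edgeR adjusted p = 6.9e-09), was the highest estimate of the 10 and rests on the few Ctr reads.

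The T region genes H2-T22 and H2-T23 moved by very different amounts. H2-T23 encodes Qa-1, which presents a leader peptide of other class I chains to the CD94/NKG2 receptors of natural killer cells. It had 0.283, 0.546, 0.577 and 0.384 TPM in Ctr and 100.1, 142, 113 and 139 TPM in IFNg, a log2 fold change of 7.87 ± 0.20 (SE), or 234-fold (edgeR adjusted p = 2.7e-09). H2-T22, whose product carries no peptide and is recognised by some gamma delta T cells, began higher, with 6.74, 9.58, 5.69 and 6.66 TPM in Ctr, and reached 119, 193, 134 and 161 TPM in IFNg. Its change was 4.26 ± 0.20 (SE), or 19.2-fold (edgeR adjusted p = 1.53e-07). The ratio of H2-T23 reads to H2-T22 reads lay between 0.0410 and 0.0924 in the Ctr libraries and between 0.632 and 0.729 in the IFNg libraries, with no overlap.

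H2-M3, which presents peptides with a formylated start such as bacteria and mitochondria make, had 4, 25, 12 and 16 reads in Ctr and 886, 987, 640 and 800 in IFNg. Its log2 fold change was 6.32 ± 0.29 (SE, edgeR adjusted p = 6.43e-07). H2-T24 had the smallest rise. It had 0.289, 0.535, 0.196 and 0.341 TPM in Ctr and 1.29, 2.27, 2.67 and 2.93 TPM in IFNg. The change was 2.56 ± 0.38 (SE), or 5.91-fold (DESeq2 adjusted p = 6.29e-10, edgeR adjusted p = 0.00140). The H2-T24 estimate depended on the cultures, at 1.79 with replicates 1 and 2 alone and 3.32 with replicates 3 and 4 alone, the latter pair sharing 1 prefix in their titles.

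**Figure D1:**
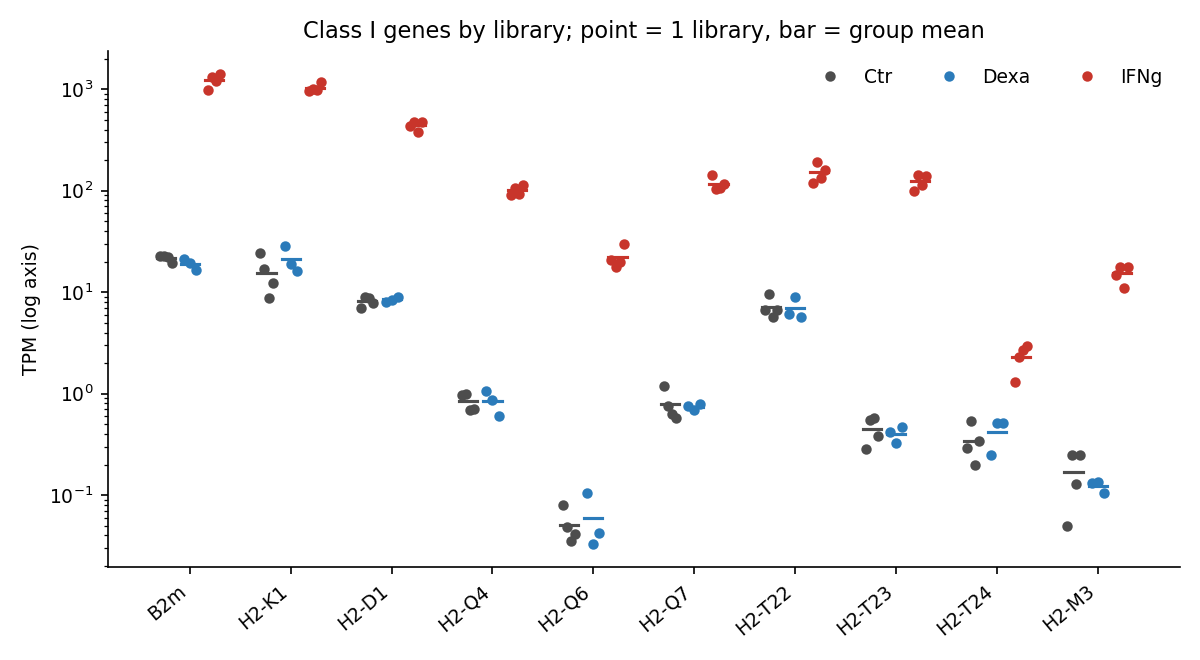
TPM of the 10 class I genes on a log axis, with 1 point per library and a short bar at the mean of 4 Ctr, 3 Dexa and 4 IFNg libraries. The IFNg points stand above all others for each gene, while the Dexa and Ctr points overlap, and H2-T24 shows the smallest gap between IFNg and the other groups.

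The H2 sum was 2963, 2595, 1646 and 1968 normalized counts in Ctr and 113987, 108216, 115580.0 and 118832 in IFNg. It rose by a log2 fold change of 5.64 ± 0.20 (SE), or 49.8-fold (DESeq2 adjusted p = 1.5e-179), the same estimate as for B2m. As a share of all reads the 9 genes went from 0.00692% ± 0.00173 to 0.335% ± 0.00992 (SD, n = 4 each).

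Ordered by TPM, Ctr cultures fell into 2 tiers. B2m, H2-K1, H2-D1 and H2-T22 lay between 5.69 and 24.1 TPM, and neighbours in that order overlapped in their ranges. H2-Q4, H2-Q7, H2-T23, H2-T24, H2-M3 and H2-Q6 followed, none above 1.18 TPM and again with each overlapping the next. In IFNg the order was B2m and H2-K1 (overlapping), then H2-D1, then H2-T22, H2-T23, H2-Q7 and H2-Q4 with overlapping neighbours, then H2-Q6 and H2-M3, whose ranges of 17.6 to 29.8 and 11 to 17.7 TPM touched, and last H2-T24. Gaps with no overlap separated H2-K1 from H2-D1, H2-D1 from H2-T22, H2-Q4 from H2-Q6 and H2-M3 from H2-T24.

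The makeup of the H2 reads changed with IFN-γ. Exact two-sided permutation tests on each gene's share of the H2 sum, adjusted over 9 genes, found 6 changed shares, each at p = 0.0286 (the smallest this design allows) and adjusted p = 0.0429. H2-T22 fell from 26.4% ± 4.05 to 9.99% ± 1.58 of the H2 reads (SD, n = 4 each), and H2-T24 from 1.59% ± 0.472 to 0.188% ± 0.0628. H2-Q4 rose from 3.42% ± 0.134 to 7.29% ± 0.515. H2-Q7 rose from 2.80% ± 0.462 to 8.09% ± 1.19 and H2-T23 from 1.56% ± 0.742 to 6.93% ± 0.845. H2-Q6 rose from 0.196% ± 0.0240 to 1.74% ± 0.380, on few Ctr reads. It passed the count filter through the IFNg libraries alone, so it adds no support to the count of 6. The shares of H2-K1 (33.5% ± 11.3 and 36.6% ± 1.24), H2-D1 (30.0% ± 7.30 and 28.4% ± 1.08) and H2-M3 (0.526% ± 0.313 and 0.786% ± 0.103) did not pass, with adjusted p between 0.220 and 0.771 in the exact permutation test. H2-Q4, H2-Q7 and H2-T23 thus held a larger part of the H2 reads after IFN-γ, and H2-T22 and H2-T24 a smaller one. The shares of the 9 genes add up to the whole, so these tests are not independent of each other. Unlike the H2 sum, the shares also depend on how reads were split among similar genes.

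**Figure D2:**
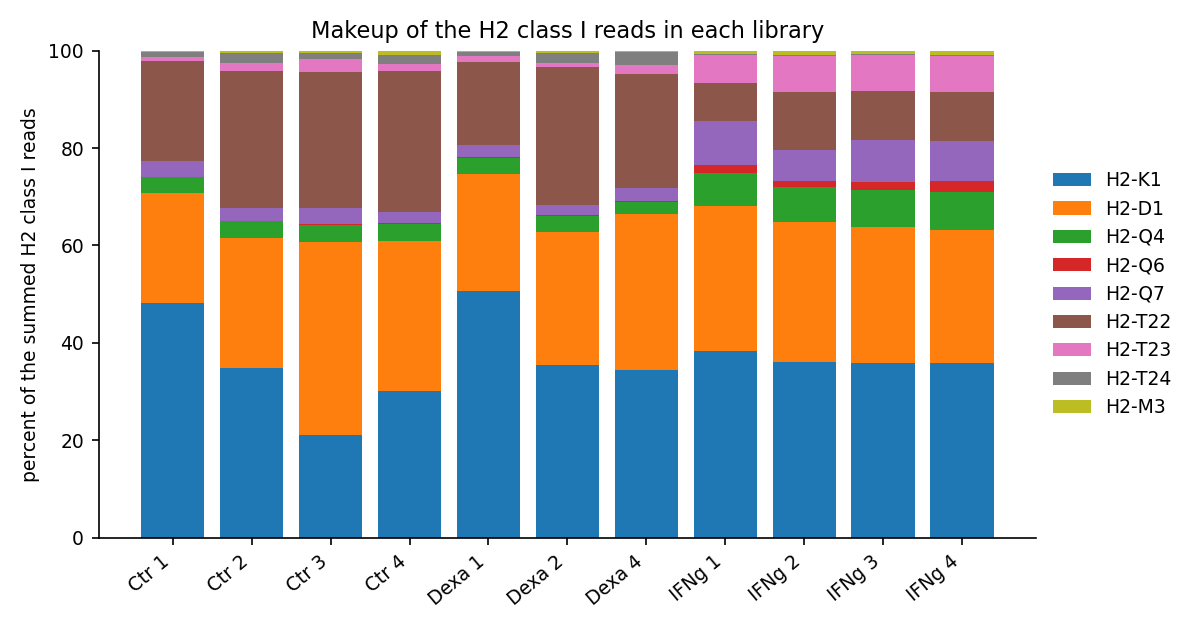
Percent of the summed H2 class I reads held by each of the 9 H2 genes, as a stacked bar for each of the 11 libraries. H2-T22 takes 20.4% to 29.0% in Ctr and 7.94% to 11.8% in IFNg, the H2-K1 part is uneven in Ctr and Dexa, and the 4 IFNg bars resemble each other.

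H2-K1 was the member that differed most among untreated cultures with appreciable counts. It had 1426, 903, 346 and 592 normalized counts in Ctr replicates 1 to 4, a coefficient of variation of 57.0%, and 43768, 39095, 41367 and 42657 in IFNg, where the coefficient was 4.81%. H2-D1 varied by 5.43% in Ctr and 3.62% in IFNg. The ratio of H2-K1 to H2-D1 reads was 2.13, 1.31, 0.531 and 0.973 in Ctr, and 1.29, 1.26, 1.28 and 1.31 in IFNg. The 3 Dexa cultures had 2.10, 1.29 and 1.08 for numbers 1, 2 and 4, close to the Ctr cultures of the same number. Between cultures of the same number, H2-K1 rose 30.7-, 43.3-, 119- and 72.1-fold with IFN-γ, and H2-D1 rose 50.7-, 44.9-, 49.4- and 53.4-fold. The IFNg counts of H2-K1 being close to each other, its spread in fold restates the spread of the Ctr counts. Replicates 3 and 4 share a title prefix, and the log2 fold change of H2-K1 was 6.50 within them and 5.15 within replicates 1 and 2, against 5.69 and 5.57 for H2-D1.

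**Figure D3:**
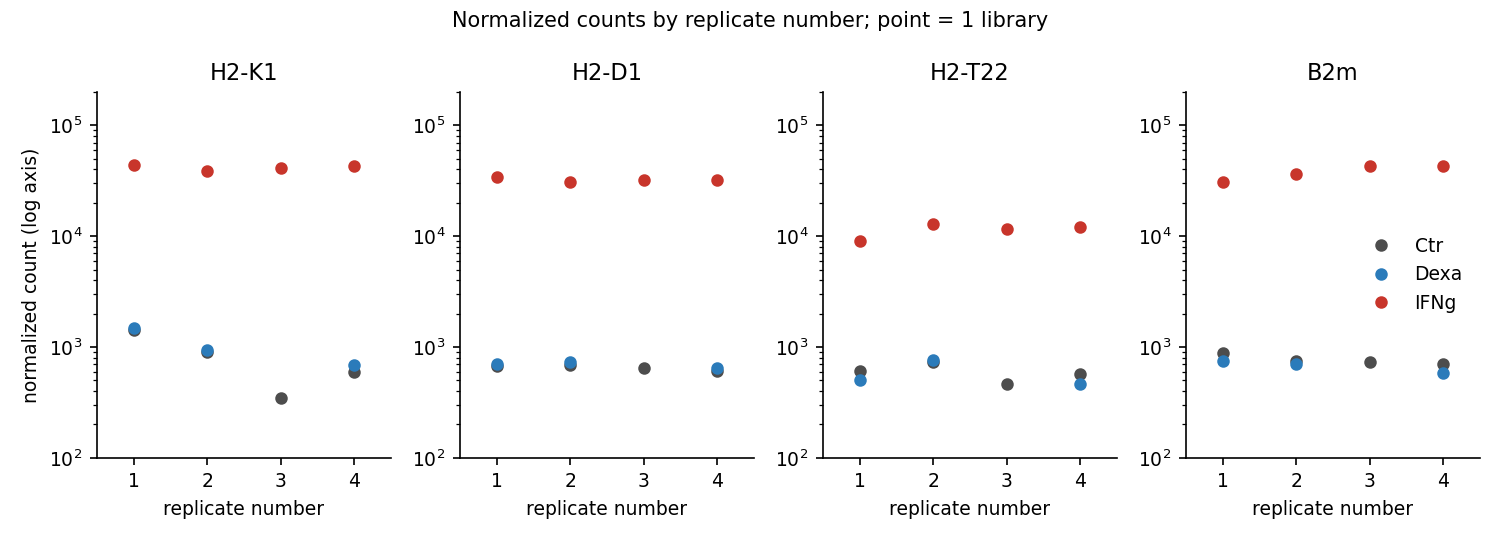
Normalized counts of H2-K1, H2-D1, H2-T22 and B2m on a log axis by replicate number, with 1 point per library (no complete Dexa library for number 3). H2-K1 runs from 346 to 1426 across the Ctr cultures and the Dexa points lie on or near the Ctr points of the same number, while all IFNg points of H2-K1 lie between 39095 and 43768.

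Heavy and light chain RNA were set against each other as a ratio. The ratio of the H2 sum to B2m, both in TPM, was 1.80, 1.69, 1.16 and 1.5 in Ctr and 1.92, 1.57, 1.53 and 1.58 in IFNg. The mean log2 ratio was 0.60 ± 0.28 and 0.72 ± 0.15 (SD, n = 4 each), a difference of 0.11 that did not pass the test (p = 0.571, exact permutation test, two-sided). With protein-coding transcripts alone the difference was -0.01. In Dexa the ratio was 2.13, 2.01 and 1.99, with each library above the highest Ctr library. That difference of 0.43 in log2 ratio had p = 0.0571 in the exact permutation test, the smallest that 3 against 4 libraries allow, so the design could not pass the threshold.

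The reads lay mostly on transcripts annotated as protein coding. In IFNg, H2-D1 had 98.8% ± 0.266 of its reads on such transcripts (SD, n = 4), H2-T22 89.2% ± 1.95, H2-T23 86.2% ± 0.702, H2-K1 77.3% ± 3.89 and H2-Q4 76.8% ± 0.905. H2-Q7 was lower at 44.0% ± 6.71, since a single retained-intron transcript took 46.2% to 61.1% of the reads. The mean was higher than in Ctr by 12.1 percentage points for H2-T23, from 74.1% ± 10.8, and by 2.49 points for H2-D1, from 96.3% ± 1.05. It was lower for the other 4, with differences from -6.49 points for H2-Q7 to -2.76 points for H2-Q4. None of 6 genes tested passed (smallest adjusted p = 0.171, exact permutation test). H2-M3 and B2m have 1 annotated transcript each, H2-Q6 and H2-T24 have coding transcripts alone, and these 4 were not tested.

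Dexamethasone did not move a class I gene past the threshold. None of the 10 was called against Ctr by DESeq2 or edgeR, and none had an unadjusted p under 0.05. In the same comparison 0.547% of all tested genes were called by DESeq2 and 0.123% by edgeR, so a count of 0 in 10 is near the background. The libraries of the 2 groups overlapped for all 10, while 4.26% of all tested genes had groups that did not. H2-D1 had 8.02, 8.44 and 8.99 TPM in Dexa replicates 1, 2 and 4, and its log2 difference of 0.09 had a 95% interval from -0.07 to 0.24. B2m had 21.1, 19.3 and 16.7 TPM, with a difference of -0.18 and an interval from -0.49 to 0.12. For the H2 sum the difference was 0.15, with an interval from -0.27 to 0.56. H2-K1 (28.3, 18.8 and 16.0 TPM) was less well bounded, at 0.35 with an interval from -0.46 to 1.15, and H2-M3 had the lowest estimate, -0.40 with an interval from -1.23 to 0.44. All 10 intervals included 0, which does not show that dexamethasone had no effect, and the upper end of each lay below the lower end of the IFNg interval of the same gene.

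**Figure D4:**
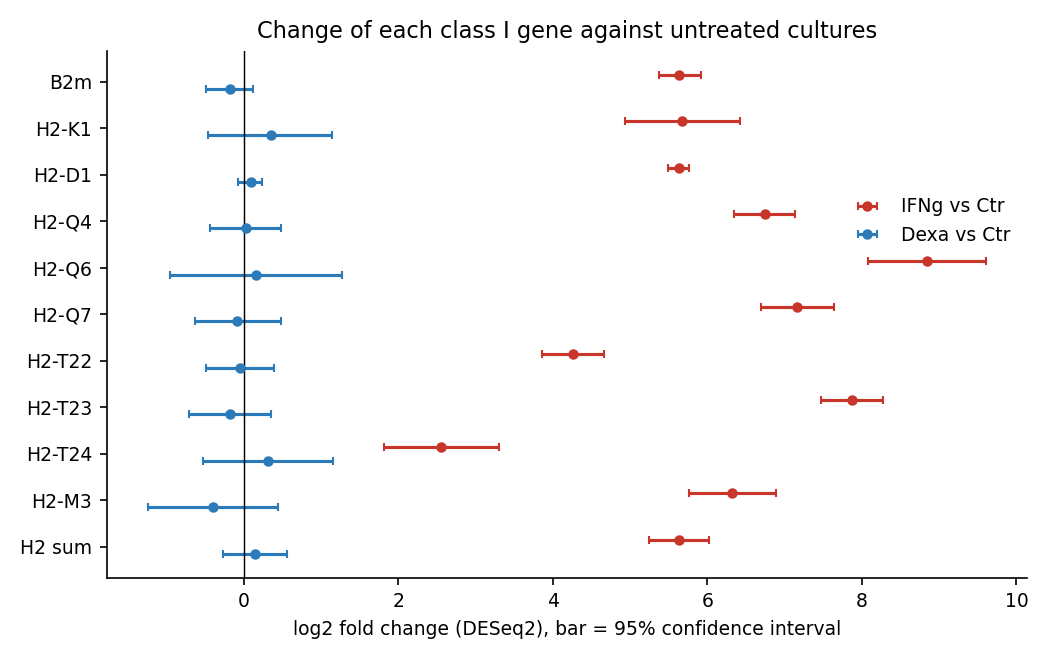
Log2 fold change of each class I gene and of the H2 sum against Ctr, from DESeq2, with 95% confidence intervals, for IFNg (4 libraries) and Dexa (3 libraries) against 4 Ctr libraries. The IFNg values run from 2.56 for H2-T24 to 8.84 for H2-Q6, and each Dexa interval includes 0.

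Against Dexa, a comparison that uses the same IFNg libraries, all 10 genes were again called higher in IFNg by DESeq2 (7.66% of all tested genes were) and by edgeR (5.66%). The log2 fold changes ran from 2.24 ± 0.42 for H2-T24 to 8.69 ± 0.48 for H2-Q6 (SE), with 5.83 ± 0.15 for B2m. Here too, H2-Q6 was tested through its reads in the IFNg libraries alone.

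The genes that supply and load class I peptides rose with them. Of 13 genes in a list of this machinery, 11 were called higher in IFNg than in Ctr by DESeq2 and edgeR alike and none lower (8.02% and 6.06% of all tested genes were called higher), with a median log2 fold change of 4.04. The largest changes were those of Psmb8 (8.75 ± 0.15 SE, from 43.2 ± 10.7 to 18697 ± 1038 normalized counts, SD) and Psmb9 (8.08 ± 0.20), subunits of the immunoproteasome that cuts peptides, and of Tap1 (6.02 ± 0.11), 1 chain of the peptide transporter. The general chaperones Calr and Canx were not called, at 0.14 ± 0.09 and 0.12 ± 0.08. None of the 13 was called in Dexa, where DESeq2 called 0.547% of all tested genes.

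Among 13 transcription factors known to act on class I promoters, 4 were called higher by DESeq2 and 3 by edgeR, and none lower, against 8.02% and 6.06% of all tested genes called higher. Nlrc5, the class I transactivator that acts through the SXY module, rose the most, by 9.41 ± 0.20 (SE), from 21.8 ± 3.65 to 15069.9 ± 1245 normalized counts (SD). Irf1, which binds ISRE sequences, rose by 6.01 ± 0.10, and its relative Irf2 by 1.17 ± 0.12. The DNA-binding partners at the SXY module stayed uncalled for Rfx5 (0.01 ± 0.25), Rfxap (-0.20 ± 0.13) and Rfxank (-0.10 ± 0.13). Nfya was called by DESeq2 (0.23 ± 0.07, adjusted p = 0.0150) and not by edgeR (adjusted p = 0.0854). With the replicate number as a block, edgeR called it higher too (adjusted p = 0.00786), where 16.0% of all tested genes were called higher. In Dexa none of the 13 was called, against 0.547% of all tested genes, and Nlrc5 had 17.1 ± 9.36 normalized counts.

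**Figure D5:**
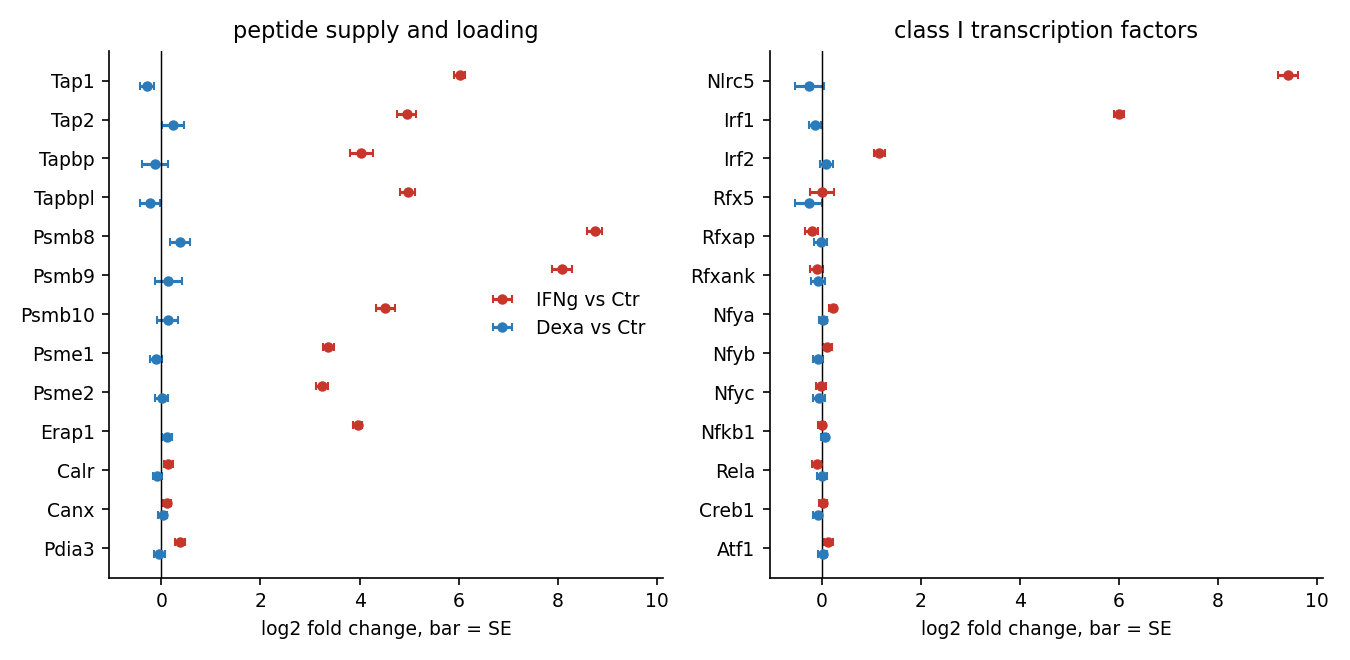
Log2 fold change against Ctr with its SE (DESeq2) for the 13 genes of peptide supply and loading and the 13 class I transcription factors, in IFNg and in Dexa. Nlrc5 at 9.41 and Psmb8 at 8.75 lie furthest right in IFNg, Calr, Canx and the Rfx, Nfy, Nfkb1, Rela, Creb1 and Atf1 rows stay near 0, and all Dexa values stay near 0.

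Other H2 class I genes added little to the total. Of 29 further genes and gene models, 25 were in the annotation, 15 had no more than 3 reads in any library and 9 had 0 reads in all. Together these genes held 1.41% to 2.27% of the H2 class I reads in Ctr and 0.725% to 0.886% in IFNg. The count filter was passed by 5, of which H2-Q5, H2-Q10 and H2-T-ps passed through the IFNg libraries alone, so no count of calls is given. H2-T10, a close relative of H2-T22, had 24, 25, 17 and 16 reads in Ctr and 530, 605, 502 and 542 in IFNg, a log2 fold change of 5.18 ± 0.25 (SE). H2-Q5 had 2, 3, 0 and 0 reads in Ctr and 174, 160, 150 and 171 in IFNg. H2-Q10 had 2, 2, 3 and 6 reads in Ctr and 45, 41, 44 and 39 in IFNg. These 3 share part of their sequence with H2-T22, H2-Q6 and H2-Q7, so reads of one gene may have been assigned to another.

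Class I-like genes outside the H2 family showed smaller differences. Of 9 tested, DESeq2 called 2 higher in IFNg, where 8.02% of all genes were, namely Hfe, an iron regulator (1.05 ± 0.36, adjusted p = 0.0324), and H60b, a ligand of the activating receptor NKG2D (0.77 ± 0.25, adjusted p = 0.0185). Without the block edgeR called neither (adjusted p = 0.103 and 0.0573). With the replicate number as a block, DESeq2 and edgeR each called 4 of the 9 higher, where 15.2% and 16.0% of all genes were, and both called Hfe and H60b (edgeR adjusted p = 5.87e-04 and 0.00476). The added genes were Cd1d1, which presents lipids (0.69 ± 0.12 SE), and Mr1, which presents vitamin metabolites (1.44 ± 0.26 SE). H60b was also called higher in Dexa by DESeq2 (1.12 ± 0.27, adjusted p = 0.00683), where 0.547% of all genes were called. By edgeR it was called in the fit with the block (adjusted p = 0.0140 with the block and 0.197 without), where 1.57% of all genes were called.

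By Pearson correlation of log2(CPM + 1) over the 11 libraries, the genes most like the H2 sum were Gbp7, Psmb10, Gbp3, Gsdmd and Ifih1 (r from 0.9995 to 0.9981), and those most like B2m were Irgm1, Parp14, Gbp5, Xaf1 and Gm4951 (r from 0.9993 to 0.9990). The 11 points fall into 2 clusters, IFNg and the rest, so these values mostly describe that gap. The log2 fold changes of these 10 genes ran from 4.52 for Psmb10 to 9.88 for Gm4951.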

How the data were processed

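RNA-seq libraries (stranded total RNA) of 12 OPC cultures were used, 4 per group. Per the labels, the authors quantified transcripts with Salmon 0.8.2 and deposited estimated counts and TPM per transcript on GRCm38. The transcript identifiers are those of GENCODE M21, whereas the study's methods name Ensembl 75 for a separate STAR alignment. The authors' deposited DESeq2 tables hold fold changes and p-values of their comparisons and were not used. Estimated counts were summed per gene and rounded, and TPM were summed per gene. Tested were the 17919 of 55536 genes that reached 10 counts in 4 or more of the 11 complete libraries. The main test was the DESeq2 1.42.0 Wald test (R 4.3.3) on all 11 libraries with no covariate, with Benjamini-Hochberg adjustment and a threshold of 0.05, beside the edgeR 4.0.16 quasi-likelihood test. Where DESeq2 gave an adjusted p of 0 by rounding, that of edgeR is printed. Dexa replicate 3 was left out of every fit. For the H2 sum, a second fit replaced the 9 H2 genes by their total. Shares and ratios were compared by exact two-sided permutation tests. Both count fits were tested on simulated data, where DESeq2 called more unchanged genes than its threshold allows and edgeR did not, so calls by edgeR are given beside those by DESeq2. The permutation test was checked against a second implementation. Alternatives were the edgeR fit, the replicate number as a block, TMM library sizes, no count filter, fits of 2 groups, each library left out, and replicates 1 and 2 or 3 and 4 alone.

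Libraries with the same number deviated together from their group means (r from 0.500 to 0.869 in 10 pairs over tested genes). For different numbers r ran from -0.804 to 0.695, the highest for Ctr replicate 3 with Dexa replicate 4. The ranges overlap, so these values do not settle that the numbers pair the libraries. The main fit and the permutation tests did not use the number, and no paired permutation test was run. Replicates within a group differed by 22.3 to 224 times the counting noise (chi-square per degree of freedom). Depth was 19209063 to 52074652 estimated reads, so genes with fewer than 10 reads per library in Ctr (H2-Q6, and H2-M3 in 1 library) have imprecise fold changes. The class I genes and the other lists were chosen with earlier results of these data known. All 10 class I genes are named in each comparison. From each list, the 3 genes with the largest change called in a direction and Nlrc5 are named, and the text adds uncalled members and genes whose call differed between tools, chosen after their values were seen. Of the listed transcription factors, 1 is not reported here. For likeness, the 5 genes with the highest correlation with the H2 sum and with B2m are named.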

Additional observations from a re-analysis of the deposited data

Results flagged for a closer look

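In groups of 4 libraries, values were checked for 1 library far from the other 3 by Dixon's test (gap over range above the 95% critical value for 4 values). Of 58 groups 7 passed it. Chance gives about 1 in 20 for independent groups, but these counts, shares and ratios are built from the same reads, so no excess is read from this. None was weighed further.

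In IFNg replicate 1, H2-K1 held 38.4% of the H2 reads (36.1%, 35.8% and 35.9% in the others), H2-T23 held 5.67% (7.45%, 7.24% and 7.35%), and the ratio of the H2 sum to B2m in TPM was 1.92 (1.57, 1.53 and 1.58). IFNg replicate 2 had 6899 normalized counts of H2-Q7 (10326, 10012 and 9830.0 in replicates 1, 3 and 4) and a ratio of H2-T23 to H2-T22 reads of 0.632 (0.714, 0.715 and 0.729). In Ctr replicate 1, H2-T22 held 20.4% of the H2 reads (28.3%, 28.1% and 29.0%). In Ctr replicate 2, 69.0% of H2-Q4 reads lay on its protein-coding transcript (83.6%, 82.6% and 83.1%).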

How the results depend on the processing

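All 10 genes were called higher in IFNg than in Ctr under each of 19 alternatives and than in Dexa under each of 17. None was called in Dexa against Ctr under 17. In all but the fit with no count filter, H2-Q6 was tested through its reads in IFNg alone. With the replicate number as a block the H2 sum rose by 5.68 (DESeq2) and 5.67 (edgeR) on the log2 scale in IFNg against Ctr, and the block changed no call of the 10 genes in any comparison. Over all alternatives the H2 sum rose by 5.32 to 6.03 in IFNg against Ctr (5.51 to 5.79 with 1 library left out), by 5.34 to 5.61 against Dexa, and differed by 0.02 to 0.29 between Dexa and Ctr. The 6 changed shares of H2 reads stayed 6 with TPM or with the wider gene list as the base. H2-Q6 is among them and adds no support to that count. With 1 library left out the share tests could not pass, so only the differences were recomputed. The difference in the log2 ratio of the H2 sum to B2m between IFNg and Ctr turned from 0.11 to -0.01 with protein-coding transcripts alone and ran from -0.02 to 0.19 with 1 library left out, and the cause was not tested. For Dexa against Ctr, uncalled log2 differences near 0 changed sign for H2-Q4, from 0.03 to -0.03 with the DESeq2 block and to as low as -0.14 with 1 library left out (to 0.23 at the other end). With 1 library left out they ran from -0.35 to 0.44 for H2-Q6, from -0.23 to 0.17 for H2-Q7, from -0.29 to 0.09 for H2-T22 and from -0.30 to 0.01 for H2-T23. Counting either spacing of the ISRE type, an alternative chosen after seeing the data, took the promoters with a match from 6 to 9.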
